A study of Mus musculus with 8 samples.

Results

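Collagen chains are the subject here: 33 mouse collagen genes, read in whole skin labelled DTG and in whole skin labelled Control. The chains were listed by symbol, and an array probe was taken as theirs when its RefSeq accession mapped to that symbol, so the rule itself uses no measured value, although the list was drawn up with earlier results of these data known. Of the 33 chains, 31 had a matched probe and 30 passed the filter on dim probes, among 17737 named genes tested. Col6a3 and Col12a1 had no matched probe and were not analysed here. Col19a1 was too dim to test, with 0 of 4 DTG and 2 of 4 Control arrays well above background. The study measured RNA on 4 DTG and 4 Control one-colour arrays, and its title names Musashi1 gene overexpression in mouse skin. DTG is not spelled out in the labels. Strain, age and the promoter behind any transgene are not given in the sources used here, nor is it stated whether the 4 skins of a group came from separate animals. All 8 samples carry the label male.

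Collagens are secreted or membrane-bound proteins whose chains wind into helical trimers along repeats of glycine and other residues. Fibrillar collagens such as types I, III and V build the cable-like fibrils of the dermis, and type IV collagen forms the sheet of the basement membrane under the epidermis and around vessels. Type VII collagen forms anchoring fibrils that tie this sheet to the dermis, and FACIT collagens (fibril-associated collagens with interrupted helices) decorate the surface of fibrils. In skin most dermal chains come from fibroblasts, while type VII and some type IV chains are also made by keratinocytes.

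Levels below are log2 signals relative to the 75th percentile of all probes on the same array, and a change is the DTG mean minus the Control mean on that scale, tested with limma and called at an adjusted p under 0.05. The arrays of the groups differed at the low end of the signal. Spots well above background made up 69.85% ± 1.22 in DTG and 82.72% ± 2.62 in Control (SD, n = 4 each). Negative-control spots, after background correction, averaged 4.46 ± 0.19 in DTG and 2.85 ± 0.37 in Control on the unscaled log2 scale. The groups did not overlap on these spots (permutation test, exact and two-sided, p = 0.0286, the smallest that 4 against 4 arrays allow). Over all 17737 genes the median change was -0.15, so a chain at -0.15 moved with the typical gene. With arrays scaled on spike-in spots that median was 0.32, and every chain's change lies higher by a similar amount on that scale. A pair of sex-linked genes split the arrays against the male label. Xist was high on DTG 1, 3 and 4 and on Control 2 and 4, and the Y-linked gene Eif2s3y was high on DTG 2 and on Control 1 and 3. High-Xist arrays made up 3 of 4 in DTG and 2 of 4 in Control, so this class is not balanced between the groups.

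Among the collagens, the largest decrease was that of the basement membrane chain Col4a6, and the main dermal fibril chains did not pass the test. Of the 30 chains tested, 8 fell in DTG skin (26.7%, against 21.3% of all genes tested), namely Col4a6, Col4a5, Col7a1, Col23a1, Col11a1, Col11a2, Col5a1 and Col9a3. Col2a1 and Col10a1 rose (6.67%, against 11.1% of all genes). The other 20 chains did not pass. In either direction 33.3% of the chains were called, against 32.4% of all genes, so the share of called chains lay near the background. The median change of the 30 chains was -0.38, or -0.24 relative to the median of all genes, and 0.09 with spike-in scaling, or -0.23 relative to the median there. Every DTG array lay below every Control array for 7 chains (23.1% of all genes did so) and above for 2 (11.4% of all genes), so 9 of 30 did not overlap, against 34.5% of all genes. Among the called chains 4 were lower by at least 1 on the log2 scale, namely Col4a6, Col11a1, Col4a5 and Col23a1, as were 3.35% of all genes. Of the 26 chains well above background on all 8 arrays, 7 fell (26.9%) and 1 rose (3.85%). In a refit limited to such probes 8 chains fell and 1 rose, against 21.3% and 12.8% of 15501 genes. In whole skin, fewer cells of a type and less RNA per cell cannot be told apart.

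**Figure D1:**
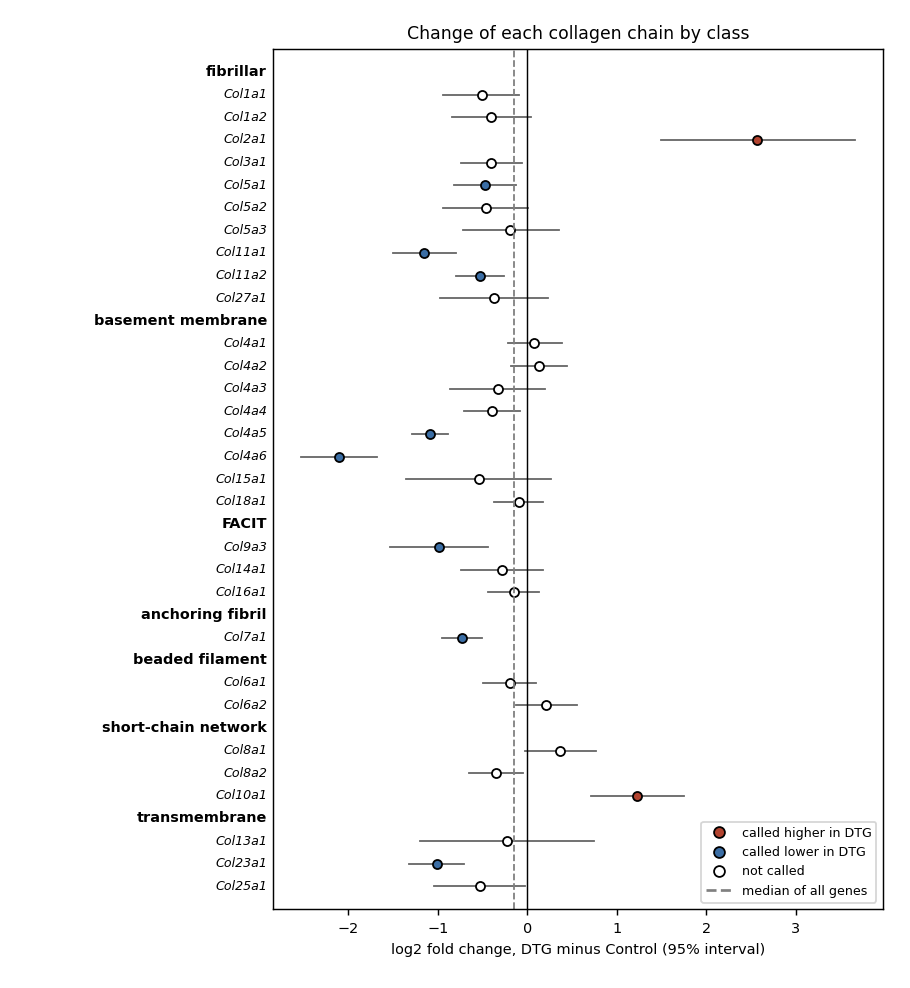
Change of each tested collagen chain in DTG relative to Control skin, as a point on the log2 scale with its 95% interval from limma, grouped by collagen class. Filled points were called at an adjusted p under 0.05 and the dashed line marks the median of all genes at -0.15. Col4a6 lies farthest to the left at -2.10 and Col2a1 farthest to the right at 2.57.

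Type IV collagen chains differed widely in their change. Col4a6 had levels of -3.81, -3.25, -3.26 and -2.83 on DTG arrays 1 to 4, against -1.29, -1.13, -1.26 and -1.07 on Control arrays 1 to 4. All DTG arrays lay below all Control arrays, and the means were -3.29 ± 0.40 and -1.19 ± 0.10 (SD, n = 4 each). Col4a6 thus fell by 2.10 (SE 0.19), a 4.30-fold lower signal (limma adjusted p = 0.000237), the largest decrease among the chains tested. A second, dimmer Col4a6 probe, above background on 0 DTG and 4 Control arrays, changed by -0.56 (limma adjusted p = 0.0085 over probes). As an untested bound, this probe was at least 1.19-fold lower in DTG. With both probes averaged the change was -1.33 (limma adjusted p = 0.000248).

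Col4a5, which encodes the chain that assembles with that of Col4a6 in the skin basement membrane and lies next to it on the X chromosome, changed the same way. Its levels were -1.83, -1.58, -1.77 and -1.65 on DTG arrays, against -0.71, -0.65, -0.56 and -0.56 on Control arrays. The groups did not overlap, and Col4a5 fell by 1.09 (SE 0.09, 2.13-fold, limma adjusted p = 0.000188). Since both genes are X-linked, the classes by Xist bear on them directly. Among arrays of high Xist, Col4a6 changed by -2.20 and Col4a5 by -1.14 (limma adjusted p = 0.0152 and 0.00966). Among arrays of low Xist, where a lone DTG array is assumed to vary like the others, the changes were -1.98 and -0.95 (limma adjusted p = 0.0455 and 0.0786). Both chains stayed lower in DTG with spike-in scaling, at -1.64 and -0.62 (limma adjusted p = 0.00126 and 0.0163).

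The vascular and general basement membrane pair Col4a1 and Col4a2 did not pass. Col4a1 had 3.22, 2.83, 3.11 and 2.79 on DTG arrays, against 2.91, 3.14, 2.80 and 2.77 on Control arrays, and Col4a2 had 3.10, 2.81, 3.06 and 2.59 in DTG, against 2.75, 2.97, 2.69 and 2.64 in Control. The groups overlapped for both, with changes of 0.08 (95% interval -0.22 to 0.39, adjusted p = 0.655) and 0.13 (-0.18 to 0.44, adjusted p = 0.496) by limma. With spike-in scaling both were called higher, at 0.55 and 0.59 (limma adjusted p = 0.0217 and 0.0166), as were 33.8% of all genes. The median of all genes on that scale was 0.32. Of 5 endothelial markers 1 (Vwf) was called lower and 0 higher, against 21.3% and 11.1% of all genes. All 5 were above background on every array, and their summed linear signal was 4.69 to 6.27 in DTG and 5.93 to 7.36 in Control.

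Among the remaining basement membrane chains none passed. Col4a4 changed by -0.39 (limma adjusted p = 0.0568), while its other kept probes read -0.50 and 0.26, so the probes disagreed in sign. Col4a3, the partner of Col4a4 in specialised basement membranes such as that of the kidney, was above background on 0 DTG and 4 Control arrays and was not called (adjusted p = 0.301). Col15a1 changed by -0.54 (SE 0.35), with overlapping groups and the highest level on Control 1 at -1.95. One of its other probes was called lower (-0.69, limma adjusted p = 0.0118 over probes). Col18a1, whose C-terminal fragment is endostatin, changed by -0.09 (SE 0.12). With spike-in scaling it was called higher (0.37, limma adjusted p = 0.0454), as were 33.8% of all genes.

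The anchoring fibril gene Col7a1, mutated in dystrophic epidermolysis bullosa, was lower in DTG skin. Levels were 1.79, 1.86, 2.0 and 1.73 on DTG arrays, against 2.63, 2.55, 2.68 and 2.45 on Control arrays. Its groups did not overlap, and it fell by 0.73 (SE 0.10, 1.66-fold, limma adjusted p = 0.00125). Within the arrays of high Xist the change was -0.66 (adjusted p = 0.0332) and within those of low Xist -0.80 (adjusted p = 0.0899) by limma. With spike-in scaling it was -0.26 and was not called (limma adjusted p = 0.104). Of 5 keratinocyte markers, 4 fell on the 75th percentile scale (Krt5, Krt1, Krt10 and Itgb4, against 21.3% of all genes). None of them rose, against 11.1% of all genes. Their summed linear signal was 61.3 to 76.2 in DTG and 80.6 to 109 in Control, with all 5 above background on every array. Values of these markers on spike-in spots are not given here. Their part in the Col7a1, Col4a5 and Col4a6 changes was not tested.

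**Figure D2:**
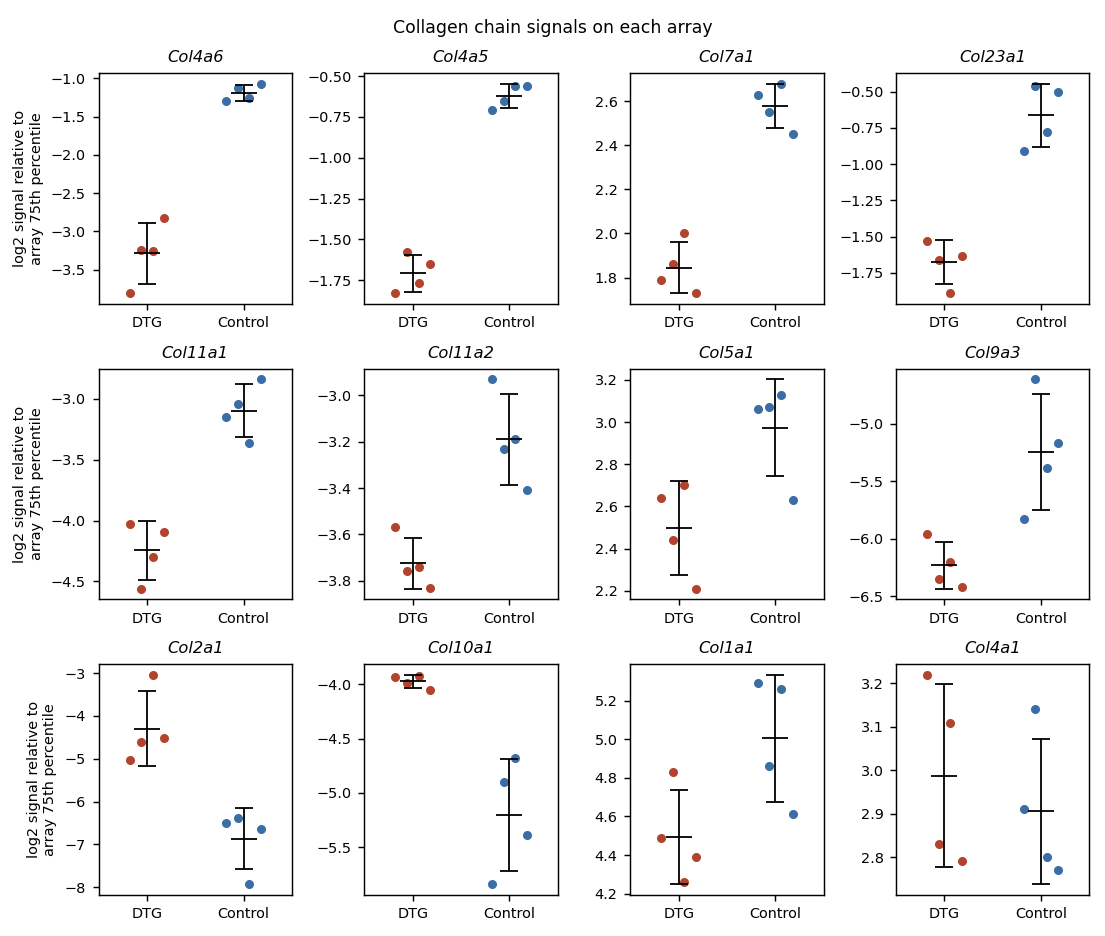
Log2 levels of 12 collagen chains on each array, with the 75th percentile of that array set to 0. Points are arrays 1 to 4 from left to right within a group, DTG in red and Control in blue, with mean and SD in black. The groups do not overlap for Col4a6, Col4a5, Col7a1, Col23a1, Col11a1, Col11a2, Col9a3, Col2a1 and Col10a1, and they overlap for Col5a1, Col1a1 and Col4a1.

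The start regions of 4 chains whose signals differed between the groups are shown. The reasons are that Col4a6 and Col4a5 are neighbours that fell together, Col7a1 is the anchoring fibril chain and Col10a1 is a chain that rose. Sequences are RefSeq promoters of build GRCm38.p6, 5′ to 3′ on the gene's strand, cut at the annotated gene body. Capitals mark a CCAAT box, a GC box (GGGCGG) or a TATA box (TATAAA) on either strand. The stretches are chrX:141474096-141474326 (minus strand) for Col4a6, chrX:141475169-141475369 (plus) for Col4a5, chr9:108953336-108953585 (plus) for Col7a1 and chr10:34389731-34389980 (plus) for Col10a1.
Col4a6: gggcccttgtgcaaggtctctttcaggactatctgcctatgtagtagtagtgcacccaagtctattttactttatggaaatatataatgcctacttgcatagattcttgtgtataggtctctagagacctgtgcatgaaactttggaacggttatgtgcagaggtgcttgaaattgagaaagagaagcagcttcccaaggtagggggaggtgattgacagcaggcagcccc
Col4a5: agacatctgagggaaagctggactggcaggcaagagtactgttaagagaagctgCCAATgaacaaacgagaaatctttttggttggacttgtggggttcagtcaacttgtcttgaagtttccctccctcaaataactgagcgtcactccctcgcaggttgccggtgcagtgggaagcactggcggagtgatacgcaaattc
Col7a1: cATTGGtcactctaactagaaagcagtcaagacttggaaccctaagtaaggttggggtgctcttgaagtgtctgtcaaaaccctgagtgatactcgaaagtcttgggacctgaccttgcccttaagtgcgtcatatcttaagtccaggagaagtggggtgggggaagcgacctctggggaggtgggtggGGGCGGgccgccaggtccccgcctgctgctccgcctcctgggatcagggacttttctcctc
Col10a1: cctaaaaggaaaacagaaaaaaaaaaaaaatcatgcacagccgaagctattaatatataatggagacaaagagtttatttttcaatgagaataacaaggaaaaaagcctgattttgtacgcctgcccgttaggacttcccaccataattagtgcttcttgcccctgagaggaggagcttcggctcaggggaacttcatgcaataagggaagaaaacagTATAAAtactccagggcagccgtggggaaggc

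Promoter windows of 300 bases, from 250 before to 50 after the start, were found for 26 of the 33 chains (28 windows). A GC box stood in 67.9% of these windows, against 35.7% of 32851 windows of all genes. A CCAAT box stood in 35.7% of the collagen windows and 37.4% of all, and a TATA box in 14.3% and 13.6%. The Col4a5 and Col7a1 windows each hold a CCAAT box and a GC box, and the Col4a6 window holds a GC box with neither other motif. In Col4a5 and Col4a6 the GC box does not lie within the stretch printed above, so no capitals mark it. Col10a1 has a TATA box and no GC or CCAAT box. These motif matches are descriptions of letters in the windows.

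The major dermal fibril genes Col1a1, Col1a2 and Col3a1 read lower on average in DTG on the 75th percentile scale but did not pass, and on spike-in spots they read -0.05, 0.07 and 0.07. Col1a1 had 4.49, 4.83, 4.26 and 4.39 on DTG arrays, against 5.29, 4.86, 5.26 and 4.61 on Control arrays. DTG 2 reached above Control 4, so the groups overlapped, and the change was -0.51 (SE 0.19, 95% interval -0.94 to -0.09, limma adjusted p = 0.063). Col1a2, which encodes the partner chain of type I collagen, had 4.59, 5.0, 4.61 and 4.62 in DTG, against 5.47, 4.87, 5.38 and 4.69 in Control (change -0.40, 95% interval -0.84 to 0.04, limma adjusted p = 0.146). Col3a1, of the finer reticular fibrils, had 4.86, 5.05, 4.79 and 4.77 in DTG, against 5.53, 5.07, 5.48 and 4.99 in Control (change -0.40, 95% interval -0.74 to -0.06, limma adjusted p = 0.0681). In all 3 genes DTG 2 was the highest DTG array, Control 1 the highest and Control 4 the lowest Control array. The arrays of low Xist, DTG 2, Control 1 and Control 3, thus read above the high-Xist arrays of their own group in these genes. Col1a1 and Col3a1 were called lower without Control 4, at -0.64 and -0.49 (limma adjusted p = 0.0298 and 0.0395). They were also called with Xist class as a covariate (-0.39 and -0.31, adjusted p = 0.0228 and 0.0371), median scaling (0.0434 and 0.0445) and array weights (0.0352 and 0.0354), and Col1a1 without DTG 2 (0.0455), all by limma. Of 22 alternative settings, Col1a1 was called in 5 and Col3a1 in 4. Quantile scaling gave -0.27 and -0.16 (limma adjusted p = 0.191 and 0.27). Without scaling the changes were -0.39 and -0.28 (limma adjusted p = 0.15 and 0.175).

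Of 7 fibroblast markers, 4 (Dpt, Lum, Dcn and Fbln1) were called lower on the 75th percentile scale (21.3% of all genes were), by less than the distance to the spike-in scale, on which they would read above 0. None was called higher, and Pdgfra and Thy1, at 0.36 and -0.02, lay above the median of all genes. The list had a summed linear signal of 77.4 to 88.6 in DTG and 89.9 to 97.4 in Control, and all 7 were above background on every array. Their median change was -0.30, and their part in the fibrillar chain values was not tested.

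Of the minor fibrillar chains, Col5a1, Col11a1 and Col11a2 fell. Col5a1, whose product limits fibril diameter and is mutated in classical Ehlers-Danlos syndrome, had 2.64, 2.44, 2.70 and 2.21 in DTG, against 3.06, 3.07, 3.13 and 2.63 in Control. It fell by 0.47 (SE 0.15, limma adjusted p = 0.0432), although DTG 1 and DTG 3 lay above Control 4. The call was lost without DTG 1, DTG 2 or DTG 4 and without Control 1, 2 or 3 (limma adjusted p = 0.0549 to 0.108), and with Xist class as a covariate (0.0648), and with spike-in scaling the change was -0.01. Its partner Col5a2 changed by -0.46 (limma adjusted p = 0.117) and passed without Control 4 (-0.61, adjusted p = 0.0494), while Col5a3 changed by -0.19 (adjusted p = 0.563).

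Col11a1, best known for nucleating cartilage fibrils, had -4.03, -4.56, -4.30 and -4.09 in DTG, against -3.15, -3.04, -3.36 and -2.84 in Control. The groups did not overlap and it fell by 1.15 (SE 0.15, 2.21-fold, limma adjusted p = 0.00134). It remained lower with spike-in scaling (-0.68, limma adjusted p = 0.0398). Col11a2, another chain of type XI collagen, had -3.57, -3.76, -3.74 and -3.83 in DTG, against -2.93, -3.23, -3.19 and -3.41 in Control. It fell by 0.53 (SE 0.12, 1.45-fold, limma adjusted p = 0.0114) with no overlap, but read -0.07 with spike-in scaling. Col27a1, the remaining fibrillar chain tested, changed by -0.37 (SE 0.26) and did not pass.

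Col2a1 and Col10a1, chains best known from cartilage and its hypertrophic zone, were the chains called higher, both from dim probes. Col2a1 had -5.03, -4.60, -3.04 and -4.51 in DTG, against -6.50, -6.38, -7.93 and -6.65 in Control, where 2 of 4 arrays were well above background. It thus passed the filter on dim probes through the DTG arrays alone, and its Control level is partly below what the arrays resolve. All DTG arrays were higher, and Col2a1 rose by 2.57 (SE 0.48, limma adjusted p = 0.00521). With normexp background correction the change was 1.39 (limma adjusted p = 0.00594). Col10a1 had -3.93, -3.99, -3.92 and -4.05 in DTG, against -5.84, -4.90, -4.68 and -5.39 in Control, with every array above background. It rose by 1.23 (SE 0.23, 2.34-fold, limma adjusted p = 0.00536), or 0.86 with normexp (adjusted p = 0.000845).

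Of 5 cartilage markers tested, 0 were called higher, against 11.1% of all genes. Comp fell by 1.43 (SE 0.19, limma adjusted p = 0.00133), while Acan, Matn1, Sox9 and Hapln1 were not called, and Hapln1 was above background on no DTG array. Ucma was too dim to test, being above background on 2 DTG and 0 Control arrays. It read -5.06, -5.62, -4.16 and -5.81 in DTG, against -8.71, -9.34, -9.55 and -9.10 in Control, with no overlap. No fold is given for Ucma, because neither group was above background on all of its arrays. The summed linear signal of all 6 was 3.41 to 4.17 in DTG and 3.59 to 4.89 in Control, and Sox9, which other skin cells also express, made up most of it. Negative-control spots kept a higher signal on the DTG arrays after background correction. The part of this floor in the rise of dim probes was not tested beyond the normexp values given.

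Transmembrane and fibril-surface chains held the other calls. Col23a1, a transmembrane collagen, had -1.53, -1.66, -1.89 and -1.63 in DTG, against -0.91, -0.46, -0.78 and -0.50 in Control. Its groups did not overlap, and it fell by 1.01 (SE 0.13, 2.02-fold, limma adjusted p = 0.00121). A second Col23a1 probe fell by 0.53 (limma adjusted p = 0.0177 over probes), and with spike-in scaling the change was -0.55 (adjusted p = 0.0694). Col25a1, a transmembrane collagen found in neurons, changed by -0.53 (limma adjusted p = 0.0978), and passed without Control 4 (-0.72, adjusted p = 0.0268). Its second probe was called lower (-0.48, limma adjusted p = 0.0351 over probes). Col13a1, concentrated at neuromuscular junctions, changed by -0.23 (SE 0.42), and read 0.14 without Control 4.

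Among FACIT genes only Col9a3 was called of 3 tested. It had -5.96, -6.35, -6.20 and -6.42 in DTG, where no array was well above background, against -5.83, -4.61, -5.38 and -5.17 in Control. The change was -0.99 (SE 0.24, limma adjusted p = 0.0159), from DTG values below what the arrays resolve. As an untested bound, Col9a3 was at least 1.11-fold lower in DTG, and it passed the filter through the Control arrays alone. The call was lost with quantile scaling (adjusted p = 0.0594), without scaling (-0.86, 0.0761) and on spike-in spots (-0.52, 0.189), and normexp gave -0.32 (0.0496), all by limma. Col14a1 and Col16a1, both of which associate with dermal fibrils, changed by -0.28 (SE 0.20) and -0.15 (SE 0.12). A dimmer Col14a1 probe read 0.39 (SE 0.33), opposite in sign, and neither probe passed.

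Of the beaded filament and short-chain network genes none was called lower. Col6a1, of the microfibrils that surround dermal cells, had 2.55, 2.80, 2.91 and 2.55 in DTG, against 3.07, 2.92, 2.97 and 2.63 in Control, with overlap (change -0.19, 95% interval -0.49 to 0.10, limma adjusted p = 0.279). Col6a2 changed by 0.21 (SE 0.15, limma adjusted p = 0.305). Col8a1 and Col8a2, chains of a network around vessels and under the corneal endothelium, changed by 0.37 (SE 0.18, adjusted p = 0.139) and -0.35 (SE 0.13, adjusted p = 0.0751) by limma. With spike-in scaling Col6a2 and Col8a1 were called higher, at 0.68 and 0.84 (limma adjusted p = 0.00828 and 0.009), as were 33.8% of all genes.

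**Figure D3:**
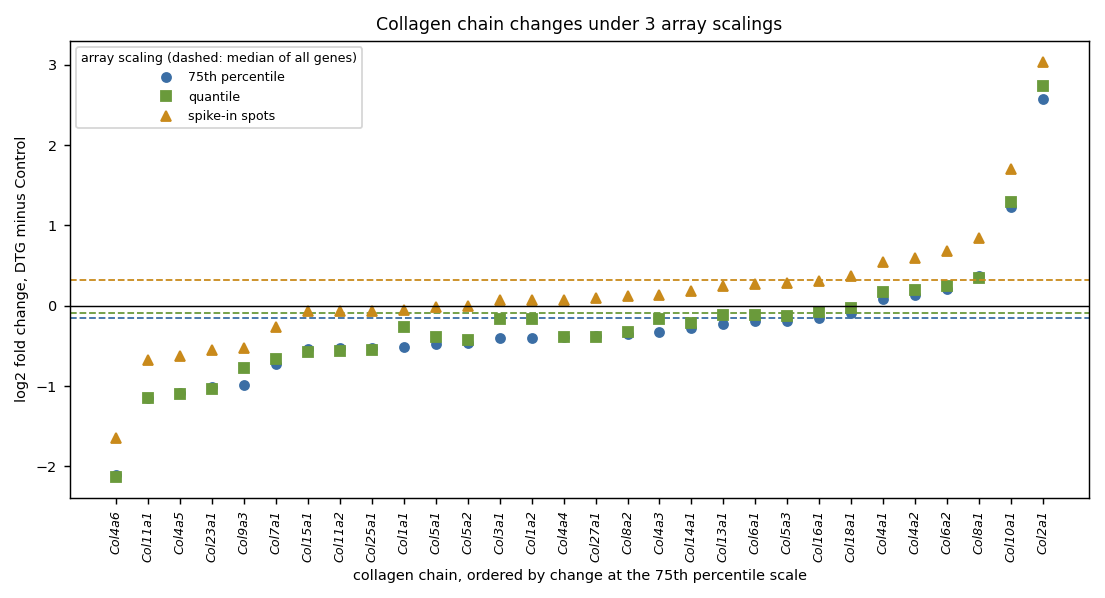
Change of the 30 collagen chains, in log2 units of DTG minus Control, with arrays scaled on the 75th percentile, by quantiles or on spike-in spots. Dashed lines give the median of all genes under each scaling, at -0.15, -0.09 and 0.32. Col4a6, Col11a1 and Col4a5 are below 0 and called under all 3 scalings, Col10a1 and Col2a1 above 0 and called, and 13 chains below 0 on the 75th percentile scale turn to above 0 or to 0.00 on spike-in spots.

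Chains that assemble into one trimer were also compared within each array, where the scaling of the array by 1 number cancels. In 8 pairs, the difference of the log2 signals of the partners was set between the groups by an exact two-sided permutation test over 70 assignments, whose smallest p is 0.0286. The difference Col4a5 minus Col4a6 was 1.98, 1.67, 1.49 and 1.18 in DTG, against 0.58, 0.48, 0.70 and 0.51 in Control. It shifted by 1.02 with no overlap (exact p = 0.0286, adjusted over the 8 pairs 0.0572), which misses 0.05 after adjustment. As this exact p is the smallest possible, the adjusted value is set by how many other pairs also reach it. The shift was 0.61 with normexp, and 0.24 with overlapping groups when the kept probes of a gene were averaged. Col11a1 minus Col11a2 shifted by -0.61, Col6a1 minus Col6a2 by -0.41 and Col8a1 minus Col8a2 by 0.72. Each of these had no overlap and the same exact p of 0.0286 (adjusted 0.0572). How often pairs of other genes separate in this way was not computed. Among single genes 34.5% did not overlap, so the count of pairs is not read as a trait of collagen partners. With normexp the groups overlapped for Col11a1 minus Col11a2 (-0.32) and Col6a1 minus Col6a2 (-0.40), and with quantile scaling for Col6a1 minus Col6a2 (-0.36).

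For type I collagen the partner difference Col1a1 minus Col1a2 was -0.21 ± 0.11 in DTG and -0.10 ± 0.07 in Control (SD, n = 4 each, exact permutation p = 0.143). Col4a1 minus Col4a2 was 0.09 ± 0.08 in DTG and 0.14 ± 0.03 in Control (SD, n = 4 each, exact permutation p = 0.343). Col5a1 minus Col5a2 and Col4a3 minus Col4a4 overlapped too, with shifts of -0.01 and 0.06 (exact p = 0.943 and 0.914).

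**Figure D4:**
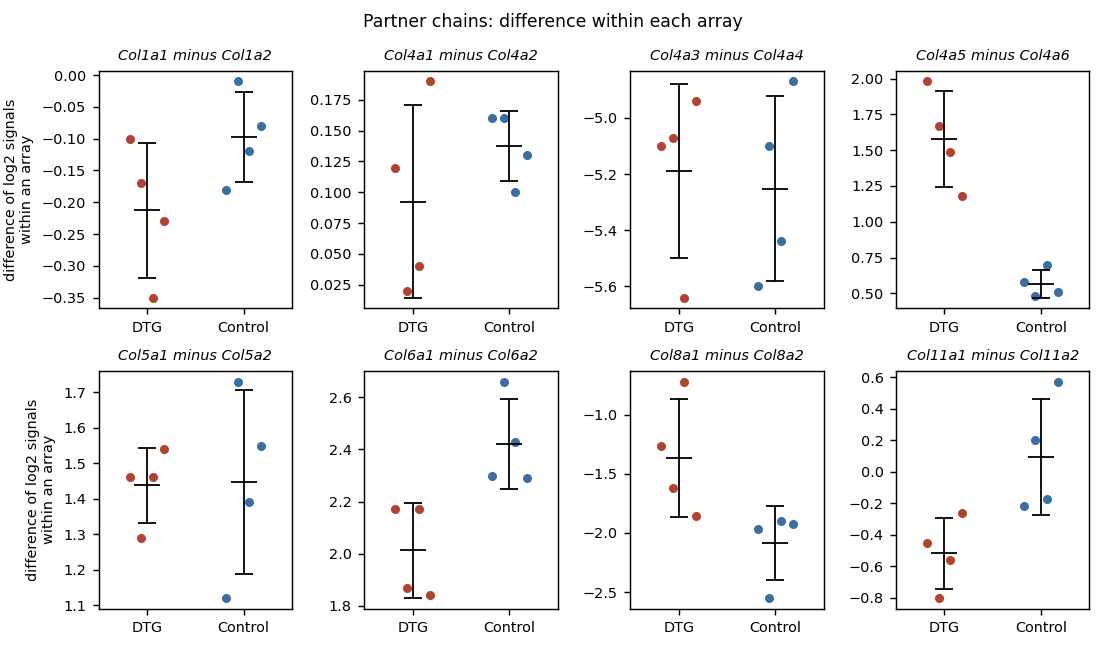
Difference of the log2 signals of 2 partner chains within each array, for 8 pairs. Points are arrays, DTG in red and Control in blue, with mean and SD in black. The groups do not overlap for Col4a5 minus Col4a6, Col6a1 minus Col6a2, Col8a1 minus Col8a2 and Col11a1 minus Col11a2.

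Within a group the chains did not all rank the arrays alike. Among the 30 chains, DTG 4 was the lowest DTG array for 14 and Control 4 the lowest Control array for 15. The highest DTG array was DTG 2 for 11 chains, DTG 3 for 9, DTG 1 for 8 and DTG 4 for 2. The highest Control array was Control 1 for 10 chains, Control 2 for 10, Control 3 for 6 and Control 4 for 4.

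Genes that modify, export, process and bind collagen were read beside the chains. Of 45 listed, 43 were tested. Of these, 10 fell (23.3%, against 21.3% of all genes) and 2 rose (4.65%, against 11.1%), with a median change of -0.10. The share that fell was near that of all genes. Of 15 hydroxylation and glycosylation genes, 4 fell and 0 rose. The prolyl 4-hydroxylase subunit genes P4ha2 and P4ha1 fell by 0.74 (SE 0.16) and 0.46 (SE 0.15), the prolyl 3-hydroxylase gene P3h3 by 0.52 (SE 0.15) and Crtap, a partner of a related prolyl 3-hydroxylase, by 0.37 (SE 0.12), while on spike-in spots P4ha1 read 0.01 and Crtap 0.09.

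Propeptide processing enzymes, which trim procollagen outside the cell, had 5 of 7 tested genes called lower, against 21.3% of all genes, and 0 higher. Pcolce2, an enhancer of procollagen C-proteinase, fell by 0.58 (SE 0.12), the N-proteinase gene Adamts2 by 0.39 (SE 0.11, but 0.08 on spike-in spots) and the C-proteinase gene Tll1 by 0.53 (SE 0.15, but -0.06 on spike-in spots). Adamts3 passed the filter through the Control arrays alone, with 0 of 4 DTG arrays above background, and read 0.15 with normexp, and Bmp1 was the other gene called, with 0.09 on spike-in spots. Averaging the kept probes ended the calls of Tll1 (-0.22), Bmp1 (-0.20) and Adamts2 (-0.26), with limma adjusted p = 0.366, 0.34 and 0.165. In folding and export, Creb3l1, a membrane-bound transcription factor of collagen genes, fell by 0.56 (SE 0.16) and the coat protein gene Sec24d rose by 0.48 (SE 0.13), and 6 of 8 did not pass. Of 5 cross-linking genes 0 passed at an adjusted p under 0.05, with changes from -0.74 to 0.06, and of 8 receptor genes only Itga1, a collagen-binding integrin, was called higher, by 0.58 (SE 0.15, with overlapping groups). That call was lost with averaged probes (0.23, adjusted p = 0.188), with array weights (0.0521) and without DTG 1 (0.0531) or DTG 2 (0.0566). All these p-values are from limma. The 10 decreases were not stable: with spike-in scaling 0 fell and 17 rose, against 2.74% and 33.8% of all genes. Leaving out 1 array left 2 to 13 lower, while the share of all genes lower was 14.1% to 19.1%, against 21.3% with every array.

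**Figure D5:**
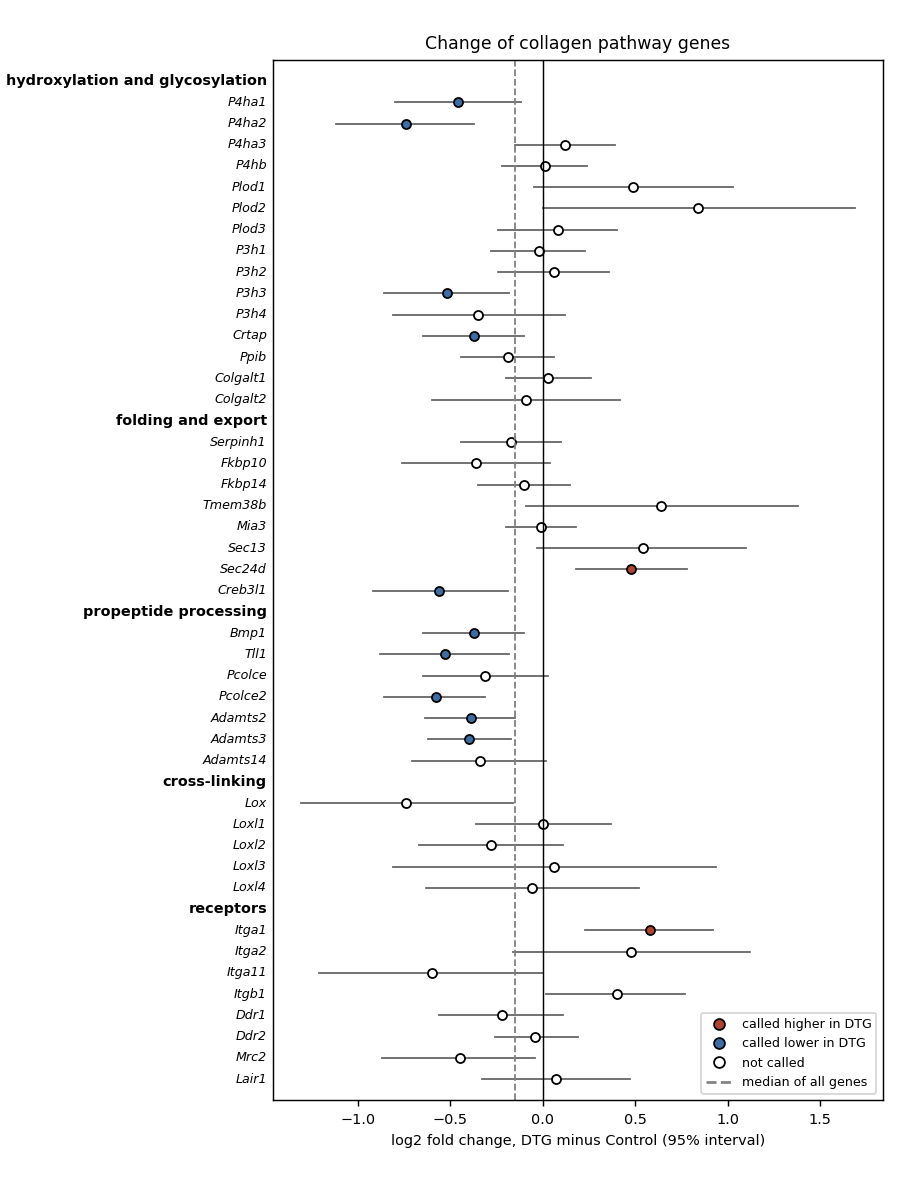
Change of the 43 tested collagen pathway genes in DTG relative to Control, in log2 units with 95% intervals from limma, by step of the pathway. Filled points were called and the dashed line is the median of all genes at -0.15. The 7 propeptide processing genes all lie below that line, between -0.58 and -0.31, and 5 of them were called, of which Adamts2, Adamts3 and Bmp1 turn to above 0 on spike-in spots.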

How the data were processed

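Whole-skin RNA of 4 DTG and 4 Control samples was hybridised to one-colour Agilent arrays on 1 slide. Each group filled its own row, so the row's effect and the group's cannot be told apart. The deposited scanner files hold background-corrected spot intensity, not log-transformed. The software was Agilent Feature Extraction. Its version reads 11.5.1.1 in the headers, while the submitters' processing notes name 10.7. A deposited table of the same values for 43861 probes matched them for 99.6% of values within a relative tolerance of 0.001, so its scale is linear and uncentred, and served as an alternative.

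Accessions were matched to a RefSeq gene list of build GRCm38.p6, used for names and neighbours, since the file headers name mm9. It named 26762 of 55681 probes (48.1%). Intensities were put on the log2 scale, outlier-flagged spots (0.744% of spot values) were left out, spots of a probe were averaged and the array's 75th percentile was subtracted. Probes had to be well above background on at least 3 of 4 arrays of a group, and the brightest kept probe stood for a gene. DTG minus Control was fitted with limma 3.58.1 in R 4.3.3 (data.table version 1.17.8), two-sided, with Benjamini-Hochberg adjustment over 17737 genes. Where no array of a group was above background, a fold is a bound against the lowest signal above background of each array. Summed marker signals are sums of linear signals relative to the 75th percentile. Steps were tested on simulated data. The number of arrays limits the precision (median SE 0.14), and since separate animals are not stated, p-values reflect the spread among these samples alone, which can be technical.

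Groups come from the tissue label, and replicate numbers name samples in deposit order. Every array value was given for called chains and the main dermal, basement membrane and anchoring chains, and up to 4 pathway genes per list by smallest p, plus others named by count. The chains and gene lists were chosen with earlier results of these data known. Alternatives covered scaling, normexp on the median signal (offset 50), filters, probe choice, Xist class, array weights and each array left out. Each kept probe's own test was added after seeing the data.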

Additional observations from a re-analysis of the deposited data

Results flagged for a closer look

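In 3 of 60 combinations of chain and group, 1 array stood far from the other 3, by a gap past the 95% critical value of Dixon's test. About 5% of groups stand out so by chance. Col1a2 on DTG 2, the DTG array of low Xist, was 5.0, against 4.59 to 4.62 on the other DTG arrays. Col5a2 on DTG 4 was 0.68, against 1.15 to 1.24 on the other DTG arrays. Col5a1 on Control 4 was 2.63, against 3.06 to 3.13 on the other Control arrays.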

How the results depend on the processing

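The 10 called chains kept their direction in all 218 planned values and passed the threshold in 191. These values refit the same arrays in which the chains were called, so they are no independent check. They include Col5a1 at -0.01 and Col11a2 at -0.07 on spike-in spots. Leaving out 1 array in turn gave 7 to 12 chains lower and 2 higher, and 2 to 13 pathway genes lower and 0 to 3 higher (6, 4 and 3 lower without DTG 1, 2 and 4, and 5, 5 and 2 without Control 1, 2 and 3, against 10). Pathway genes higher were 0 without DTG 1 and 1 without DTG 2 or Control 2. Over all genes, 14.1% to 19.1% were lower and 8.55% to 11% higher with 1 array left out, against 21.3% and 11.1%. Without scaling 3 pathway genes were lower, against 9% of all genes. With spike-in scaling 3 chains were lower and 7 higher, and 0 pathway genes were lower and 17 higher. On that scale 2.74% of all genes were lower and 33.8% higher. The lower share of all calls was 65.6% on the 75th percentile scale, 41.7% without scaling and 7.51% on spike-in spots. Only 1 chain was higher among probes above background on all 8 arrays, against 12.8% of all genes in that fit. With mean probes or array weights 1 pathway gene was higher. On arrays of high Xist 1 chain was higher, 2 pathway genes lower and 0 higher. On arrays of low Xist 1 chain was lower and 0 higher, and 0 pathway genes were lower or higher, with 1 DTG array in the fit. With normexp 2 pairs did not overlap, and 3 with quantile scaling or mean probes, against 4.

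Signs turned with spike-in scaling for Col1a2 (0.07), Col3a1 (0.07), Col5a2 (0.00), Col5a3 (0.28), Col27a1 (0.10), Col4a3 (0.14), Col4a4 (0.07), Col18a1 (0.37), Col14a1 (0.19), Col16a1 (0.31), Col6a1 (0.27), Col8a2 (0.12), Col13a1 (0.24), Adamts2 (0.08), Adamts3 (0.07), Bmp1 (0.09), Crtap (0.09) and P4ha1 (0.01). Other turned values were Col18a1 without scaling (0.03), Adamts3 with normexp (0.15), Col14a1 with mean probes (0.06), Col4a1 (-0.02), Col4a3 (0.31) and Col13a1 (0.50) on arrays of low Xist, Col4a4 (0.26) and Col14a1 (0.39) on another probe. Col13a1 ranged from -0.53 to 0.14 with 1 array left out, the highest without Control 4. Col5a1 minus Col5a2 read 0.02 with quantile scaling and 0.03 to 0.09 without DTG 2, Control 2 or Control 4. Col4a3 minus Col4a4 read -0.12 with mean probes, -0.02 without DTG 4 and -0.05 without Control 1, and at most 0.22 with 1 array left out (without DTG 3). The cause of these shifts was not tested. No paired analysis was possible because the replicate numbers only name samples in deposit order.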
